A study of Saccharomyces cerevisiae with 8 samples.

Results

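The 34 genes described here encode nuclear subunits of respiratory complexes II, III and IV and of the mitochondrial ATP synthase of *Saccharomyces cerevisiae*. They were chosen by name, as the subunits of these complexes without the oxygen-regulated pairs of isoforms, and the brightest probe set annotated to a single gene stood for each. All 34 had such a probe set, among 5656 genes that did, and all 34 passed the filter on dim genes that left 4524 genes for testing. They are 4 subunits of complex II, 9 of complex III, 7 of complex IV and 14 of ATP synthase. The study grew a strain known only by its number, 4073, in YPD, a rich medium with glucose, to mid-log phase and measured total RNA on 1-colour Affymetrix yeast arrays. The control group (arrays 1 to 4, n = 4) had no gentamicin, and the treated group (arrays 5 to 8, n = 4) had been acclimated to this aminoglycoside antibiotic, which binds ribosomal RNA, and had it in the medium throughout. The sample labels put its dose at 500 µg/ml, while the series text writes mg in place of µg, and which is meant is not known. No genotype is given for the strain, which both groups share. The labels do not say whether replicates came from separate cultures, so p-values measure the spread between these samples, which may be technical.

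As background, complex II passes electrons from succinate to ubiquinone and is also an enzyme of the citric acid cycle. Complex III passes them on to cytochrome c, complex IV hands them to oxygen, and ATP synthase uses the proton gradient that complexes III and IV build up. Budding yeast ferments glucose, and in glucose medium many of these genes are partly repressed. The Hap2/3/4/5 complex is a known activator of many of them. All members are transcribed in the nucleus, while a few core subunits of complexes III and IV and of the membrane part of ATP synthase are encoded in mitochondrial DNA.

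Most subunit genes differed little between the groups. With gentamicin, 6 of the 34 were higher (*CYT1*, *QCR8*, *QCR10*, *COX4*, *COX12* and *ATP2*) and 2 were lower (*QCR6* and *ATP20*), with changes from 1.13-fold to 1.45-fold (limma, Benjamini-Hochberg adjusted p under 0.05 over all 4524 tested genes). Of all tested genes, 15.5% were called higher, 31.3% lower and 46.8% in either direction, against 17.6% (6 of 34), 5.88% (2 of 34) and 23.5% (8 of 34) of the members. The log2 differences, gentamicin minus control, ran from -0.53 for *ATP20* to 0.46 for *ATP2*, and 33 of 34 lay within 0.5 of 0, as did 3475 of all 4524 genes. The median over members was 0.058 and over all tested genes -0.12. Of the 26 members not called, 23 had a 95% interval within 0.5 log2 units of 0 (a 1.41-fold change), and the intervals of *SDH2*, *COX7* and *ATP15* reached further. No interval of any of the 34 reached 1 log2 unit, a 2-fold change.

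**Figure D1:**
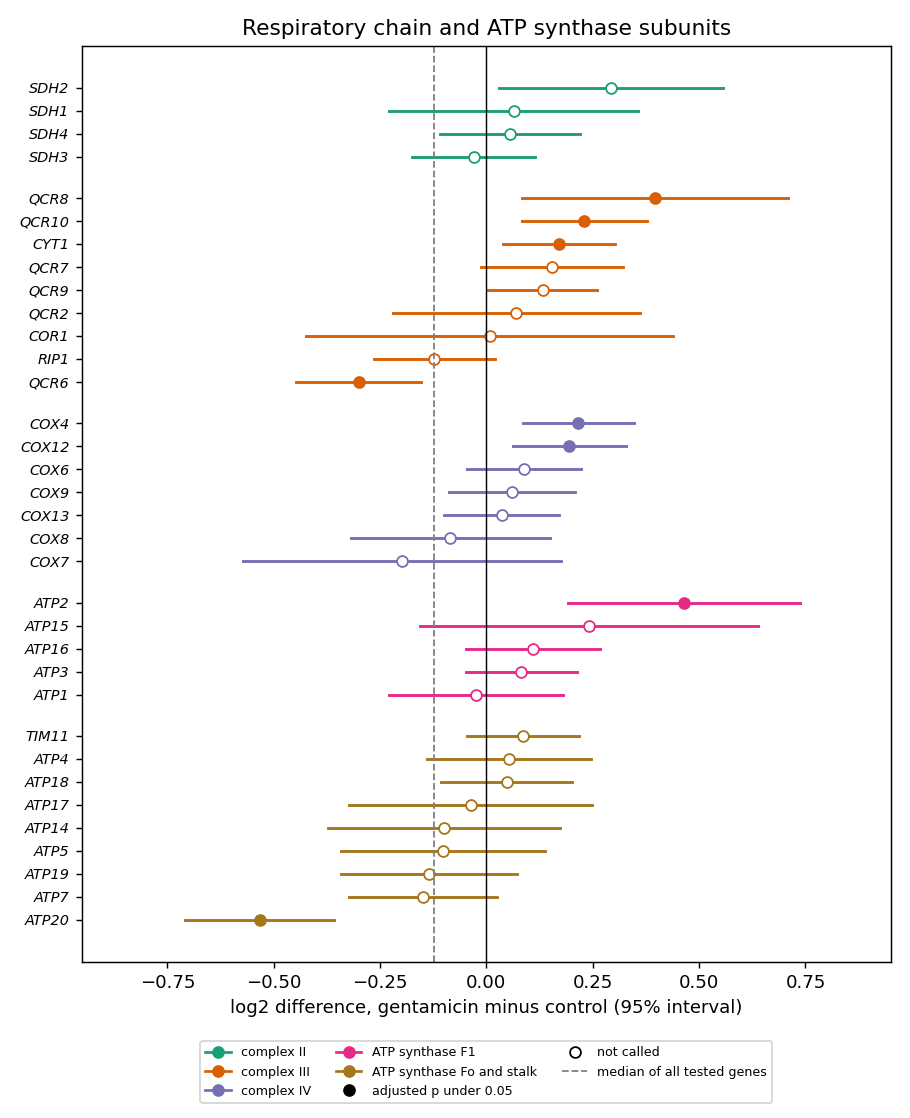
Log2 difference of signal, gentamicin minus control, for each of the 34 subunit genes (points, n = 4 arrays a group) with its 95% interval (lines), coloured by complex; filled points passed an adjusted p under 0.05, and the dashed line is the median of all tested genes, -0.12. 33 of 34 points lie within 0.5 of 0, with *ATP20* at -0.53.

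The arrays differ in a way that bears on every sign given here. The median signal over all probe sets was 389 ± 7.16 (SD, n = 4) in controls and 329.6 ± 7.06 with gentamicin, and the interquartile range of log2 signal was 1.91 ± 0.0301 and 2.16 ± 0.0319 (exact two-sided permutation p = 0.0286 for each, the smallest that 4 against 4 arrays allow, adjusted over 3 measures 0.0429). The trimmed mean signal was 1000.6 to 1000.7 on every array. Bright probe sets tended to be higher and dim ones lower with gentamicin: the median log2 difference was -0.26 in the dimmest 20% of tested genes and 0.095 in the brightest 20%. The brightest 20% held 28 of the 34 members, and in it 34.3% of all genes were called higher and 15.5% lower. The dimmest member is *ATP20*, in the dimmest 20%. After quantile normalization the medians of these dimmest and brightest genes were -0.024 and 0.018, and 2 members were higher and 3 lower. With the array medians over all genes aligned, the median over tested genes was 0.079, and 17 members were higher and 1 lower. Alignment on the medians of tested genes, added after seeing the data, gave 15 and 1. Of all tested genes, 18.8%, 27.8% and 23.9% were called higher under these 3 scalings in turn, and 19.8%, 14.0% and 17.7% lower. *ATP2* and *COX4* (higher) and *ATP20* (lower) passed the threshold of 0.05 under all 3 of these scalings. The 3 scalings put the median difference over members at -0.034, 0.26 and 0.20.

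**Figure D2:**
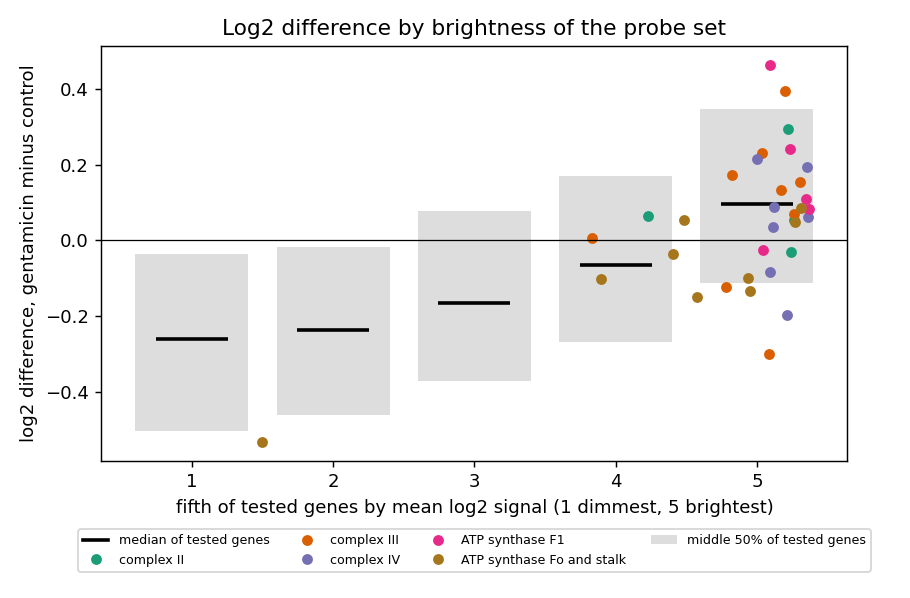
Log2 difference, gentamicin minus control, of the 34 subunit genes (coloured points) by the brightness of the probe set, over the middle 50% (grey bars) and the median (black lines) of all tested genes in each 20% band of mean signal. The medians go from -0.26 in the dimmest to 0.095 in the brightest band, which holds 28 of the 34 members.

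The 16 array controls for absent transcripts reached at most 89.5 signal units, and the lowest single member value was 332.9, so every member was measured above that range on all 8 arrays. For *ACT1*, the signal of the 3′ control probe set over that of the 5′ one was 1.38 ± 0.107 and 1.43 ± 0.0881 (exact permutation p = 0.486). Of the alpha-cell markers, 4 of 4 were tested and fell, with summed signals of 30998 to 32905 in controls and 15251 to 16361 with gentamicin. The a-cell list (1 of 6 tested) summed to 1242 to 1437 and 569 to 737. Its tested gene, *MFA1*, fell from 727 ± 89.7 to 164 ± 56.0 (limma adjusted p = 8.07e-05). Under the filter, *MFA2* had means of 183 and 157, *STE6* 131 and 134, and *BAR1* 195 and 126. *STE2* and *AGA2* were within the range of absent controls. Of 23 general stress genes 19 rose and 1 fell, with summed signals of 131740 to 139940 and 200220 to 218900. The 11 sporulation genes summed to 1074 to 1301 and 1334 to 1459, and the control means of 8 were within the range of absent controls. Of the 2 tested, *SPS100* rose from 199 ± 34.0 to 581 ± 75.7 (2.93-fold, limma adjusted p = 4.86e-05) and *IME1* was not called (0.171). The part of these in the results below was not tested. In bulk RNA, fewer cells of a kind and less RNA per cell cannot be told apart.

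Complex II had no subunit gene past the threshold, and its median log2 difference was 0.059. *SDH2*, the iron-sulfur subunit, had signals of 4698, 6314, 6689 and 6624 on control arrays 1 to 4 and 8232, 6951, 7461 and 6956 on gentamicin arrays 5 to 8. All 4 gentamicin values lay above the 4 control values, by a narrow margin next to control 2, 3 and 4, and control 1 was the lowest. The log2 difference was 0.29 ± 0.12 (SE), with an interval of 0.031 to 0.56, and did not pass (limma adjusted p = 0.0651). Without control 1 it was 0.17 (adjusted p = 0.0807). Under both alignments of medians it passed (adjusted p = 0.00538 and 0.0118), and after quantile normalization it did not (0.221).

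*SDH1*, the flavoprotein that oxidises succinate, had 1818 ± 306 in controls and 1883 ± 166 with gentamicin. Its control values were 1366, 2035, 1913 and 1956 and its gentamicin values 1729, 1764, 2081 and 1957. Control 1 was again far below the other controls, and the groups overlapped. Its log2 difference was 0.064 (interval -0.23 to 0.36). The membrane anchors *SDH3* and *SDH4*, which hold the enzyme in the inner membrane, had log2 differences of -0.030 (-0.17 to 0.11) and 0.055 (-0.11 to 0.22), and their groups overlapped. With the deposited scaling these intervals limit a change of either anchor to less than 0.5 log2 units. *SDH4* was called higher under either alignment of medians. Of 12 other tested genes listed with the citric acid cycle, 6 were higher, *IDP1* among them, and none lower, with a median of 0.15. Of all tested genes 15.5% were higher and 31.3% lower. *KGD1*, the first subunit of alpha-ketoglutarate dehydrogenase, went from 3667 ± 119.9 to 5054 ± 397 (1.38-fold, limma adjusted p = 0.000706), and *IDP1*, an NADP-dependent isocitrate dehydrogenase, from 1909.7 ± 232 to 2931 ± 229.7 (1.54-fold, adjusted p = 0.000971). After quantile normalization 4 genes of this list were higher and 1 lower, and with either alignment 7 and 0. Among complex II assembly factors, 1 of 4 tested was higher: *SDH6* rose 1.32-fold, from 4147 ± 172 to 5488 ± 206 (adjusted p = 0.000466).

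In complex III 3 genes were higher and 1 lower of 9, against 15.5% and 31.3% of all tested genes, with a median of 0.13. The share called in either direction was 44.4%, near the 46.8% of all tested genes. After quantile normalization it was 22.2% against 38.7%. With aligned medians it was 55.6% against 41.8% (medians of all genes) and 55.6% against 41.5% (medians of tested genes). The catalytic subunits differed among themselves. *CYT1*, cytochrome c1, had signals of 3122, 3112, 3249 and 2963 on control arrays 1 to 4 and 3564, 3691, 3406 and 3362 on gentamicin arrays 5 to 8. The groups did not overlap, and the mean went from 3111 ± 117 (SD, n = 4) to 3506 ± 151 (SD, n = 4), a 1.13-fold rise (log2 0.17 ± 0.058 (SE), limma adjusted p = 0.0370). The rise is small, and its call was lost after quantile normalization (adjusted p = 0.153), without a variance trend (0.0535) and without any of control 1, 2 or 4 or gentamicin 5 or 6 (adjusted p from 0.0510 to 0.0936). Direction was higher in all of these.

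*RIP1*, the Rieske iron-sulfur protein, was at 3289.6 ± 105 in controls and 3026 ± 188 with gentamicin, a log2 difference of -0.12 (interval -0.26 to 0.020) that did not pass (limma adjusted p = 0.141). After quantile normalization it was called lower (-0.18, adjusted p = 0.0433), and with aligned medians it was 0.081 and not called. The array also carries a control probe set named for *RIP1*, outside the test. That probe set read 2362, 2218, 2564 and 2196 in controls 1 to 4 and 2146, 1998, 1556 and 1689.9 on gentamicin arrays 5 to 8, a log2 difference of -0.35. On the control probe set the groups did not overlap, and on the tested one they did. With the deposited scaling both probe sets of *RIP1* were thus lower on average. They parted on gentamicin 7, the highest gentamicin value of the tested one (3244) and the lowest of the other (1556).

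The core proteins, which face the matrix and are needed for assembly, showed no call. *QCR2* had 7201 ± 928 in controls and 7576 ± 1088 with gentamicin (log2 difference 0.071, interval -0.22 to 0.36). *COR1* varied more than any other member and had 1845, 1347, 944 and 1604 on control arrays 1 to 4 and 1466, 1192, 1600.0 and 1374 on gentamicin arrays 5 to 8. Control values spanned the whole gentamicin range, so its difference of 0.0075 has an interval of -0.42 to 0.44, the widest of the 34.

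The small subunits moved in different directions. *QCR6*, the acidic hinge subunit next to cytochrome c1, fell 1.23-fold. Its signals were 5614, 5267, 5772 and 5381 on control arrays 1 to 4 and 4895, 4149, 4455 and 4423 on gentamicin arrays 5 to 8. The highest gentamicin value was under the lowest control value (means 5508 ± 227 (SD, n = 4) to 4480.4 ± 308 (SD, n = 4), log2 -0.30 ± 0.065 (SE), limma adjusted p = 0.00494). That call was lost with aligned medians (adjusted p = 0.329 over all genes, 0.106 over tested genes). *QCR10*, a small subunit at the edge of the complex, rose 1.17-fold, with signals of 4264, 4138, 4094 and 4419.9 on control arrays 1 to 4 and 5478, 4632, 4827 and 4933 on gentamicin arrays 5 to 8. Its groups did not overlap (log2 0.23 ± 0.065 (SE), limma adjusted p = 0.0172), and the call was lost after quantile normalization (0.0558).

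*QCR8*, a subunit in contact with cytochrome b, rose 1.32-fold on its bright probe set. The signals were 4083, 6392, 5978 and 6125 on control arrays 1 to 4 and 6748, 8213, 7396 and 6995 on gentamicin arrays 5 to 8. All gentamicin values were above all control values, and control 1 stood far below the other controls. The log2 difference was 0.40 ± 0.14 (SE, limma adjusted p = 0.0411) and without control 1 it was 0.25 (adjusted p = 0.0279). The call was lost without control 3 or without gentamicin 6, 7 or 8 (adjusted p from 0.0524 to 0.0978) and after quantile normalization (0.143). A dim second probe set read 134 ± 14.7 in controls (113 to 144) and 86.1 ± 14.6 with gentamicin (70.9 to 104). Its groups did not overlap either, but in the opposite direction (log2 difference -0.65). Its control values lay above the highest absent control (89.5), and its gentamicin values lay about that limit. The 2 probe sets of *QCR8* thus disagree in direction, and the cause was not tested. With the median over both probe sets *QCR8* was not called (adjusted p = 0.353).

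*QCR7* and *QCR9*, further supernumerary subunits, had log2 differences of 0.15 (-0.012 to 0.32) and 0.13 (0.0047 to 0.26) and were not called (limma adjusted p = 0.114 and 0.0824). Both were called higher under either alignment of medians, and *QCR7* also without control 3 (0.0467) and *QCR9* without gentamicin 6 (0.0445). Of 10 tested complex III assembly factors 5 were lower and none higher, with a median of -0.18, while 31.3% of all tested genes were lower. *QRI5*, known rather for its part in making the mitochondrial *COX1* transcript, fell 1.34-fold (adjusted p = 0.00347). *CBP1*, which stabilises the mitochondrial transcript of cytochrome b, fell 1.30-fold (adjusted p = 0.0149). The direction of the list depends on the scaling: 1 of 10 was lower after quantile normalization, 0 with the medians of all genes aligned (list median 0.023) and 1 with those of tested genes aligned. *CBP1* was called under none of the 3, and *QRI5* not with the medians of all genes aligned.

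**Figure D3:**
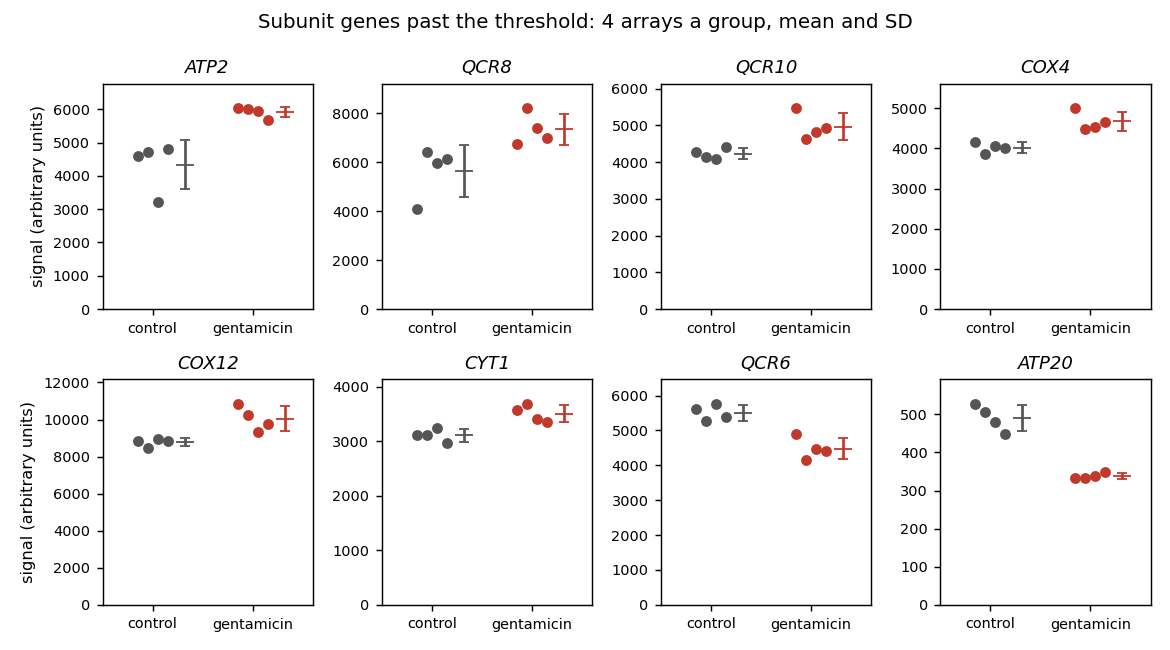
Signal (arbitrary units, axis from 0) of the 8 subunit genes past an adjusted p under 0.05 on each of the 4 control (grey) and 4 gentamicin (red) arrays, with the mean and SD beside the points. The groups do not overlap for any of the 8; control 3 of *ATP2* (3224) and control 1 of *QCR8* (4083) stand apart from the other controls.

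In complex IV 2 of 7 nuclear subunits were higher and none was lower, against 15.5% and 31.3% of all tested genes, with a median of 0.061. *COX4*, a subunit needed for assembly of the enzyme, rose 1.16-fold. It had signals of 4168, 3861, 4049 and 4012 on control arrays 1 to 4 and 5012, 4479, 4544 and 4668 on gentamicin arrays 5 to 8. Control values were close to each other and all below the gentamicin values (means 4023 ± 127 (SD, n = 4) to 4676 ± 237 (SD, n = 4), log2 0.22 ± 0.058 (SE), limma adjusted p = 0.0132). The call was kept at 0.05 without any single array and under all 3 other scalings (adjusted p up to 0.0417). *COX12*, on the intermembrane space side, rose 1.14-fold, with signals of 8845, 8446, 8922 and 8856 on control arrays 1 to 4 and 10862, 10235, 9337 and 9760.2 on gentamicin arrays 5 to 8. Its groups did not overlap either (log2 0.19 ± 0.059 (SE), adjusted p = 0.0230), but after quantile normalization the difference shrank to 0.043 (adjusted p = 0.580), and the call was lost without control 2 (0.0638) or gentamicin 5 (0.0529).

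*COX7*, a small membrane subunit, had 7498, 6745, 7494 and 6639 on control arrays 1 to 4 and 6028, 7877, 4297 and 7123 on gentamicin arrays 5 to 8. The controls were close together, while gentamicin 6 was the highest and gentamicin 7 the lowest of all 8 arrays, and the log2 difference of -0.20 has an interval of -0.57 to 0.18. *COX8* and *COX9* are small membrane subunits as well. *COX8* was at -0.084 (-0.32 to 0.15), with gentamicin 7 and 8 below every control. *COX9* was at 0.061 (-0.088 to 0.21). *COX6* and *COX13*, further supernumerary subunits, had 0.088 (-0.045 to 0.22) and 0.036 (-0.10 to 0.17). None of these 5 was called with the deposited scaling, and for *COX6*, *COX8*, *COX9* and *COX13* the intervals lie within 0.5 of 0. *COX6* and *COX9* were called higher under either alignment of medians, and *COX13* with the medians of all genes aligned.

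Of the oxygen-regulated isoforms of complex IV, *COX5A* fell 1.24-fold and *COX5B* rose 1.82-fold (limma adjusted p = 0.00569 and 5.95e-05), and of the cytochrome c genes *CYC1* fell 1.94-fold and *CYC7* rose 2.08-fold (1.17e-05 and 0.000594). The fall of *COX5A* was not called with aligned medians (adjusted p = 0.283 and 0.0918), and the other calls of these genes were kept. Of 28 tested complex IV assembly factors 4 were higher and 3 lower, against 15.5% and 31.3% of all tested genes, with a median of 0.047. *PET494*, a translational activator of mitochondrial *COX3*, rose from 193 ± 16.4 to 389 ± 60.0 (adjusted p = 0.000193), and *COX15*, of heme A synthesis, rose 1.30-fold (0.00102). *MBA1*, a receptor of the mitochondrial ribosome, and *COX23*, an assembly factor, fell 1.32-fold and 1.19-fold (0.00886 and 0.0133). Neither was called under the other 3 scalings, where 4, 10 and 7 factors were higher and 1, 0 and 0 lower. The shares of all tested genes there were 18.8%, 27.8% and 23.9% higher and 19.8%, 14.0% and 17.7% lower.

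ATP synthase had 1 subunit gene higher and 1 lower of 14, against 15.5% and 31.3% of all tested genes, with a median of 0.012. With all arrays and the deposited scaling its called genes had the largest rise and the largest fall among the 34 members. After quantile normalization *QCR6* (-0.37) and *COX7* (-0.31) were below *ATP20*, and without control 3 *QCR8* (0.43) and *SDH2* (0.34) were above *ATP2*. *ATP2* encodes the catalytic beta subunit of F1, the soluble part that makes ATP. It had signals of 4605, 4705, 3224 and 4818 on control arrays 1 to 4 and 6042, 5991, 5932 and 5685 on gentamicin arrays 5 to 8. The gentamicin values were close together and above all controls, while control 3 stood far below the other controls. The mean went from 4338 ± 748 (SD, n = 4) to 5912 ± 158 (SD, n = 4), a 1.38-fold rise (log2 0.46 ± 0.12 (SE), limma adjusted p = 0.0116). Without control 3 the log2 difference was 0.33, with adjusted p = 0.00301.

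*ATP20* encodes subunit g, a small membrane subunit that supports dimers of the enzyme. It had signals of 528, 505, 480.1 and 447 on control arrays 1 to 4 and 334, 333, 338 and 348 on gentamicin arrays 5 to 8. The gentamicin values spread over a narrow range well below the lowest control. The mean went from 490.2 ± 34.8 (SD, n = 4) to 338 ± 6.91 (SD, n = 4), a 1.45-fold fall (log2 -0.53 ± 0.078 (SE), limma adjusted p = 0.000606, 0.000231 to 0.0188 over its alternatives). The log2 difference was -0.30 after quantile normalization and -0.33 and -0.39 with aligned medians, and the dim genes it lies among had a lower quartile of -0.51. *TIM11*, subunit e, which acts with subunit g in dimer formation, had 8296 ± 351 in controls and 8807 ± 468 with gentamicin, a log2 difference of 0.086 (-0.046 to 0.22). It was not called here, and was called higher with aligned medians (adjusted p = 0.0169 over tested genes).

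Among the other F1 subunits, the alpha subunit *ATP1*, which alternates with beta in the head, had 4665 ± 449.5 in controls and 4588 ± 439 with gentamicin (log2 difference -0.024, interval -0.23 to 0.18, limma adjusted p = 0.847). Its gentamicin values of 4577, 5165, 4100.3 and 4508 fell within the span of the controls, 5275, 4704, 4235 and 4447, except gentamicin 7, the lowest. The rotor subunits *ATP3* (gamma), *ATP16* (delta) and *ATP15* (epsilon) had log2 differences of 0.083 (-0.048 to 0.21), 0.11 (-0.047 to 0.27) and 0.24 (-0.16 to 0.64). None of them was called with the deposited scaling, while *ATP3* and *ATP16* were called higher under either alignment of medians. *ATP15* had control values of 4403, 6138, 6735 and 8325 and gentamicin values of 8366, 7939.5, 6976 and 6388. Its controls spread widely, and controls 3 and 4 lay within the gentamicin range.

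In the membrane part and the stalks, 8 of 9 subunits were not called. *ATP4* (subunit b) and *ATP5* (OSCP), of the peripheral stalk, were at 0.053 (-0.14 to 0.25) and -0.10 (-0.34 to 0.14). *ATP7* (subunit d) and *ATP14* (subunit h), of the same stalk, were at -0.15 (-0.32 to 0.025) and -0.099 (-0.37 to 0.17). *ATP14* was read by a second probe set as well, with a log2 difference of -0.18. On both probe sets of *ATP14* gentamicin 7 was the lowest array, at 3066 and 2389, while gentamicin 5 was the highest, at 4602 and 4001. The membrane subunits *ATP17* (f), *ATP18* (i/j) and *ATP19* (k) were at -0.036 (-0.32 to 0.25), 0.048 (-0.11 to 0.20) and -0.13 (-0.34 to 0.073). Every one of these intervals lies within 0.5 of 0. *ATP18* was called higher with the medians of all genes aligned (limma adjusted p = 0.0237), but not with those of tested genes aligned (0.0550).

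**Figure D4:**
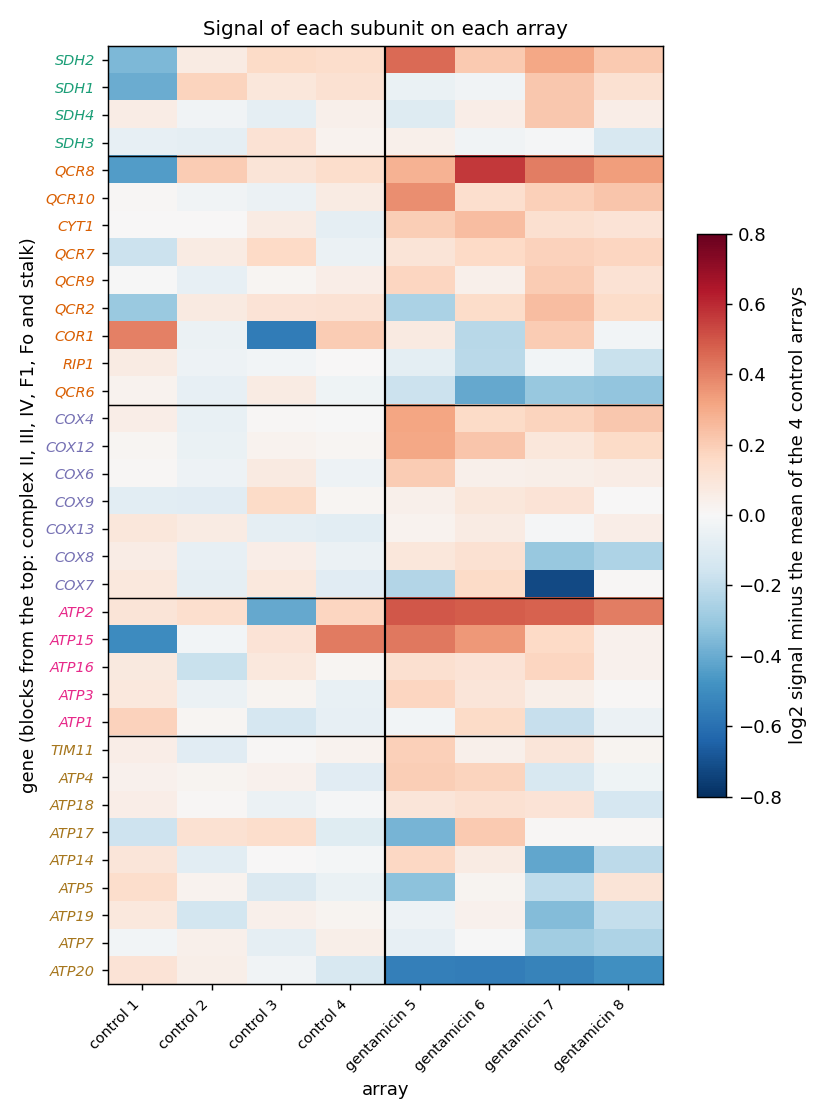
Log2 signal of each subunit gene (rows, in blocks by complex, sorted by log2 difference) on each array (columns), minus the mean of its 4 control arrays. Control 1 is low for *SDH1*, *SDH2*, *QCR2*, *QCR8* and *ATP15* together, gentamicin 7 is low for *COX7*, *COX8*, *ATP14* and *ATP19*, and *ATP20* and *QCR6* are lower on all 4 gentamicin arrays.

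The 5 F1 genes had a median log2 difference of 0.11 and 4 of 5 were above 0, and the 9 membrane and stalk genes had a median of -0.099 with 3 of 9 above 0. After quantile normalization this contrast of signs was lost: the medians were -0.026 with 2 of 5 above 0 and -0.058 with 1 of 9 above 0. The mean log2 signal of the F1 genes minus that of the membrane and stalk genes, each gene relative to its own mean over 8 arrays, was -0.19, -0.15, -0.20 and -0.0067 on control arrays 1 to 4 and 0.18, 0.089, 0.19 and 0.084 on gentamicin arrays 5 to 8. Every gentamicin value was above every control value, and the group means differed by 0.27. Aligning array medians cannot move this quantity, since a shift of a whole array cancels, but quantile normalization can. After it the values were -0.16, -0.098, -0.14 and 0.051 in controls and 0.12, 0.043, 0.16 and 0.034 with gentamicin, so control 4 lay above gentamicin 6 and 8, and the group means differed by 0.18. Without *ATP2* and *ATP20*, which were left out after their values were seen, the values were -0.15, -0.12, -0.049 and 0.026 in controls and 0.12, 0.020, 0.12 and 0.023 with gentamicin, so the groups overlapped at control 4 and the difference was 0.14. No test was made of this difference, as the 14 genes are no sample of genes.

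Across complexes, the mean over genes of complex III was -0.087, -0.031, -0.053 and 0.0060 in controls 1 to 4 and 0.036, 0.0077, 0.097 and 0.024 on gentamicin arrays 5 to 8, relative to the mean of 8 arrays. These groups did not overlap, though control 4 and gentamicin 6 nearly met, and the values move with the scaling of the arrays. For complex IV they overlapped, at 0.0096, -0.067, 0.023 and -0.056 against 0.085, 0.10, -0.11 and 0.014, and the lowest array was gentamicin 7. Over complex II the control values were -0.24, -0.011, 0.023 and 0.035, with control 1 apart, and the gentamicin values 0.036, 0.0038, 0.13 and 0.018. The medians over subunits of complexes II, III and IV and ATP synthase were 0.059, 0.13, 0.061 and 0.012, and the SD over genes within each was 0.139, 0.203, 0.147 and 0.224.

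**Figure D5:**
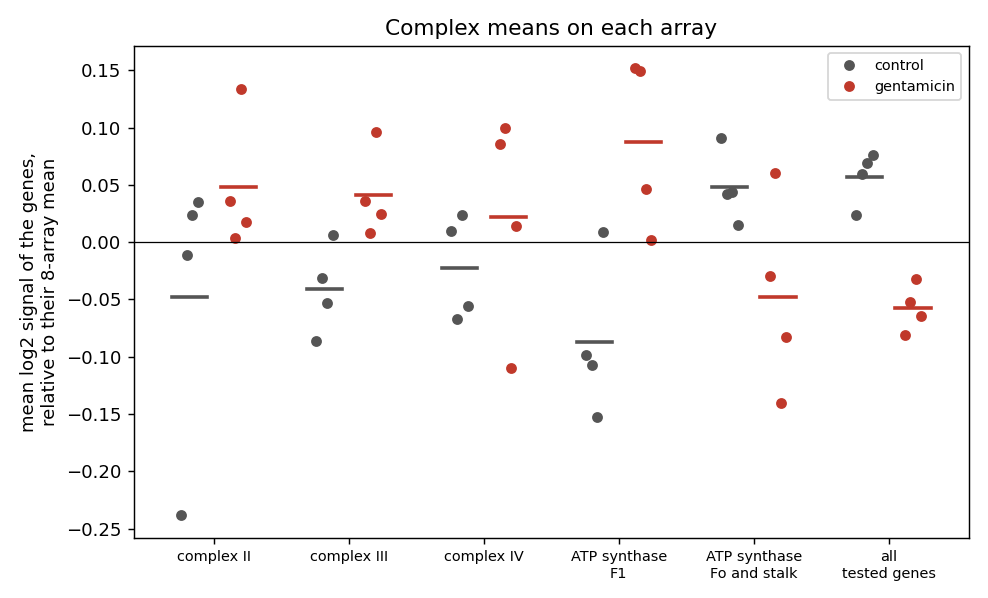
Mean log2 signal over the genes of each complex on each array, relative to each gene's mean over 8 arrays (points; lines are means of 4 arrays), for control (grey) and gentamicin (red). The F1 genes lie higher and the membrane and stalk genes lower with gentamicin on average, complex II is low on control 1 (-0.24), and the mean over all tested genes is lower on all 4 gentamicin arrays.

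The groups did not overlap for 9 of the 34 members, 7 higher and 2 lower, against 44.8% of all tested genes (15.2% higher and 29.6% lower). The one of these not called is *SDH2*. An unadjusted p under 0.05 was reached by 10 members, against 54.4% of all tested genes. The median SD of log2 signal within groups was 0.103 over members and 0.141 over all tested genes. Most members are among the brightest genes, and the spread was not compared at like brightness.

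Genes that act around the complexes were counted from lists by role. Beside each count stand the shares over all tested genes, 15.5% higher and 31.3% lower. Of 8 tested regulators of respiration 3 were lower and none higher, with a median of -0.26. *HAP4*, the activating subunit of the Hap2/3/4/5 complex, fell 1.35-fold, with control values of 965, 936, 939 and 952 and gentamicin values of 783, 745, 659 and 638 (limma adjusted p = 0.00235). *MIG1*, a repressor that acts in glucose, fell 2.08-fold, from 635 ± 41.7 to 305 ± 20.8 (adjusted p = 2.37e-05). *HAP2*, *HAP3* and *HAP5*, the DNA-binding subunits, were not called (adjusted p = 0.393, 0.0595 and 0.751). *HAP4* was also called lower after quantile normalization and with the medians of tested genes aligned, but not with those of all genes aligned (adjusted p = 0.0690). With that last scaling 2 regulators were higher and 1 lower.

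Of 12 tested ATP synthase assembly factors and regulators 2 were higher and 3 lower. The higher ones were *STF1* and *STF2*, known for their link to the inhibitor protein of the enzyme, at 1.31-fold and 1.49-fold (adjusted p = 0.00164 and 0.000285), while *INH1*, the inhibitor itself, had 3053 ± 213 and 3206 ± 251 and was not called (0.489). *ATP23*, which processes and assembles the mitochondrial subunit 6, fell 1.46-fold, and *NCA2*, which acts on the mitochondrial ATP synthase transcripts, fell 1.44-fold (adjusted p = 0.00154 and 0.0114). The list's median was -0.073 and turned to 0.069 after quantile normalization and 0.13 with the medians of all genes aligned. *STF1*, *STF2* and *ATP23* kept their calls under all 3 scalings, and *NCA2* under 1 of the 3, the alignment of tested genes.

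Of the 8 mitochondrially encoded genes with a probe set, only *COX1* and *OLI1* passed the filter, in labelling that starts from an oligo-dT primer. *OLI1*, the ring subunit of ATP synthase, rose 1.52-fold, with control values of 1092, 1033, 1139 and 1012 and gentamicin values of 2046, 1901, 1442 and 1252 (limma adjusted p = 0.00855), and *COX1*, the catalytic subunit of complex IV, was not called (0.380).

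Of 9 tested genes of heme synthesis 1 was higher, *HEM15*, ferrochelatase (1.17-fold, adjusted p = 0.0211), and 1 lower, *HEM1*, the first enzyme of the pathway (1.36-fold, 0.00257). Of 10 coenzyme Q genes 2 were higher, *COQ6* and *COQ5* (1.23-fold and 1.17-fold, adjusted p = 0.0201 and 0.0444), and 1 lower, *COQ2* (1.32-fold, 0.00867). Among carriers of adenine nucleotides and phosphate 1 of 4 was higher, *PIC2*, a phosphate and copper carrier, at 1.72-fold (adjusted p = 0.000222), while *MIR1*, the main phosphate carrier, was at 8535 ± 146 and 8501 ± 531 (0.926). Of 7 tested retrograde response genes *DLD3*, a lactate dehydrogenase that marks this response, rose 1.77-fold (0.000835) and *RTG2*, its upstream sensor, fell 1.19-fold (0.0152). The other 5 were not called, among them *CIT2* at 1919 ± 168 and 1891 ± 206 (0.862), and the list's median was -0.023. Of the mitochondrial ribosomal proteins 25 of 64 (39.1%) were lower, against 31.3% of all tested genes, and none higher, with a median of -0.29, among them the large-subunit proteins *MRPL10* (1.58-fold, adjusted p = 8.29e-05) and *MRPL13* (1.42-fold, 0.000878). Their median was below 0 under all 3 other scalings too, at -0.13 after quantile normalization and -0.083 and -0.14 with aligned medians, but 10, 3 and 10 of them were called lower (15.6%, 4.69% and 15.6%, against 19.8%, 14.0% and 17.7% of all tested genes) and 0, 1 and 0 higher. Of the called genes in the sentences before on heme, coenzyme Q, carriers and the retrograde response, *COQ2* and *RTG2* were not called under any of the 3 other scalings and *COQ5* not after quantile normalization.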

How the data were processed

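The deposited values are intensity per probe set on a linear scale, made by the authors with MAS5 per the submitters' processing notes (no version or settings given). Each array's mean without its lowest and highest 2% of probe sets was 1000.6 to 1000.7, so the deposited arrays are scaled to one level. Of 9335 probe sets, 60 were array controls. The platform annotation gave 6504 probe sets 1 gene, and all matched the R64 gene table. For 315 genes with several probe sets the brightest was used. The build of the deposited values is not given in the sources used here, so no coordinates are printed. Log2 was taken without an offset, the dimmest 20% of genes were left out, and gentamicin minus control was tested over 4524 genes with limma 3.58.1 in R 4.3.3 (lmFit, eBayes with trend, Benjamini-Hochberg, adjusted p under 0.05). The fit was tested on simulated data with independent noise and no difference in scaling between arrays, so that test does not bear on the scaling. No batch is labelled. The number of arrays, 4 a group, limits the precision. Members, lists and tests were chosen with earlier results of these data known. The genes named are all members and, of the lists around the complexes and of sporulation, up to 2 called in each direction with the smallest adjusted p. Members of the isoform pairs and of the a-cell list are all named as well. The alpha-cell and general stress lists are given as counts and sums only. *HAP2*, *HAP3*, *HAP5*, *INH1*, *MIR1*, *COX1*, *CIT2*, *IME1* and the a-cell genes other than *MFA1* were added after their values were seen. Alternatives were other scalings, offset, filters, variance models, array weights, probe set rules, a stricter threshold, far low values as missing, and each array left out.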

Additional observations from a re-analysis of the deposited data

Results flagged for a closer look

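In 9 of the 68 groups of 4 arrays (34 members in 2 conditions) 1 array stood apart from the other 3 by Dixon's test at 95%, where chance gives about 1 in 20 groups. In 8 of the 9 the array was the lowest. Control 1 accounts for 4 of them, with *SDH1* at 1366 against 1913 to 2035 on the other controls, *SDH2* at 4698 against 6314 to 6689, *QCR2* at 5818 against 7519 to 7753, and *QCR8* at 4083 against 5978 to 6392. Control 1 was more than 0.3 log2 units below the mean of the other controls for 5 of 34 members (14.7%) and for 16.5% of all tested genes, the highest share of the 4 controls. On other arrays *ATP2* was low on control 3, at 3224 against 4605 to 4818, and *COX12* on control 2, at 8446 against 8845 to 8922. *ATP4* was low on control 4, at 2101 against 2270.1 to 2292, and *ATP18* on gentamicin 8, at 6729.8 against 7925 to 8039. The only high value was *COX6* on gentamicin 5, at 5975 against 5332 to 5411. The cause of these was not tested.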

How the results depend on the processing

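Scaling moved the results most, and the cause was not tested. After quantile normalization 2 members were higher (*COX4*, *ATP2*), and the median log2 differences were 0.044 for complex III, -0.037 for complex IV, -0.050 for ATP synthase and -0.034 for all members. The signs of small differences turned (*SDH4* -0.046, *QCR2* -0.028, *COX9* -0.068, *COX13* -0.037, *ATP3* -0.060, *ATP16* -0.026, *ATP18* -0.058 and *TIM11* -0.030). With array medians over all genes aligned, 17 members were higher and 1 lower, with medians of 0.26 for complex II, 0.34 for complex III, 0.26 for complex IV, 0.22 for ATP synthase and 0.26 for all members. Turned signs were *SDH3* 0.17, *RIP1* 0.081, *COX7* 0.0056, *COX8* 0.12, *ATP1* 0.18, *ATP5* 0.10, *ATP7* 0.055, *ATP14* 0.10, *ATP17* 0.17 and *ATP19* 0.069. Aligning the medians of tested genes, added after seeing the data, gave 15 higher and 1 lower, medians of 0.21 for complex II, 0.28 for complex III, 0.21 for complex IV, 0.16 for ATP synthase and 0.20 for all members, and turned *SDH3* 0.12, *RIP1* 0.024, *COX8* 0.062, *ATP1* 0.12, *ATP5* 0.044, *ATP14* 0.047, *ATP17* 0.11 and *ATP19* 0.012. Over all tested genes, 702 were called higher and 1414 lower as reported, 852 and 897 after quantile normalization, 1256 and 635 and then 1079 and 799 with these alignments, and 490 and 915 at an adjusted p under 0.01. At 0.01, 0 members were higher (limma; 10 members had an unadjusted p under 0.05 in either direction), and *QCR6* and *ATP20* were lower. Leaving out the dimmest 40% of genes removed *ATP20*, so 1 member was lower. The median over probe sets gave 0.071 for complex III and -0.13 for *QCR8*. Array weights turned *SDH1* (-0.0011) and *ATP18* (-0.020) and added *ATP7* (lower) and *QCR9* (higher). Without single arrays 4 to 6 members were higher and 2 lower, and signs turned for *SDH1* (-0.068 to 0.12), *QCR2* (-0.029 to 0.18), *ATP1* (-0.083 to 0.037), *COR1* (-0.18 to 0.14), *ATP17* (-0.12 to 0.075), *SDH3* (-0.054 to 0.0081) and *ATP14* (-0.19 to 0.0073). An offset, no filter, leaving out shared probe set classes and setting far low values missing changed no call of a member. No paired analysis was possible because the groups share no replicate numbers.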

Other observations

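Gentamicin 7 lay below the mean of the other 3 gentamicin arrays by 0.70 log2 units for *COX7*, 0.43 for *ATP14*, 0.29 for *COX8*, 0.28 for *ATP19*, 0.24 for *ATP4*, 0.21 for *ATP1* and 0.17 for *ATP7*, while *SDH1*, *SDH4*, *COR1* and *QCR2* had their highest gentamicin value there. Over the 34 members gentamicin 7 was the lowest of its group for 9 and over all tested genes for 21.7%. Gentamicin 6 and gentamicin 8 were each the lowest for 9 members (26.5%) as well, and gentamicin 5 for 7 (20.6%). Over all tested genes the shares of gentamicin 6, 8 and 5 were 29.2%, 21.2% and 27.9%. More than 0.3 log2 units below the mean of the other 3 were 2 members (5.88%) on gentamicin 7 and 3 (8.82%) on gentamicin 5. Of all tested genes the shares were 5.84% and 12.0%. The 2 probe sets of *ATP14* shared the low value on gentamicin 7, and the 2 of *RIP1* did not.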
